A study of Mus musculus with 8 samples.

Results

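The neuregulin, ErbB and endothelin signals that pass between the endocardium and the myocardium were followed across 8 single endocardium cells of the mouse heart, taken from the heart tube per the labels and from the ventricle per the study's methods. The genes were the ligands *Nrg1*, *Hbegf* and *Edn1*, the endothelin-converting enzyme *Ece1*, and the receptors *Egfr*, *Erbb2*, *Erbb3* and *Erbb4*. They were chosen by name, as every non-control probe whose gene name in the scanner files is one of these 8. This gave 10 probes of the 55295 that were usable on all arrays, and 8 of 35560 genes. Each 1-colour array was hybridized with material amplified from 1 cell at E8.5, at the 9-somite stage. All embryos carried floxed *Sox17* alleles (Sox17flox/flox). The 4 WT cells came from embryos without Cre (Mesp1+/+), and the 4 *Sox17* KO cells came from Mesp1Cre/+ embryos, in which Cre is made in the nascent mesoderm that forms all cardiac lineages. No source names the embryo of a cell, so a genotype counts as 1 sample here. Values are therefore given per cell, with the SD between cells and no p-value.

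Neuregulin 1, the product of *Nrg1*, is secreted or shed by the endocardium and binds ERBB4 or ERBB3 on neighboring cells, which then pair with ERBB2, a receptor that has no ligand of its own. In the developing heart, endocardial neuregulin acting on ERBB2 and ERBB4 of cardiomyocytes is required for the ventricular trabeculae. HB-EGF, encoded by *Hbegf*, is a membrane-anchored growth factor that binds EGFR and ERBB4 and is known for restraining valve mesenchyme. Endothelin 1 is a vasoactive peptide of endothelial cells that ECE1 cuts from its inactive precursor, and its receptors are encoded by *Ednra* and *Ednrb*.

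Each probe is 60 bases long and covers an unbroken stretch of the genome within an exon of the transcript it was designed to. The *Nrg1* probe (transcript NM_178591) lies at chr8:32928500-32928559 of mm9 on the minus strand and carries the difference between genotypes described below. The *Egfr* probe (NM_007912) lies at chr11:16783556-16783615 on the plus strand and is the 1 of 3 *Egfr* probes that was well above background in any cell. Both are given 5′ to 3′, in lower case throughout because no part of them is singled out.
Nrg1: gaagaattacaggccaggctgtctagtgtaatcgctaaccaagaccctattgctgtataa
Egfr: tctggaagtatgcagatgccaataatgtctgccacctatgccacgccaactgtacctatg

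The scanner software called between 11370 and 18175 probes well above background per array, which is the depth of each cell. A scaled signal is the deposited signal after each array was brought to the same 50th percentile of probes detected on all arrays. For differences, scaled signals under 50 were set to that floor, which is 5.64 on the log2 scale. The methods of the study name the same floor but set it before scaling, an order that, with all probes used for the percentile, gave *Nrg1* a difference of -3.10 in place of the -3.07 given below. No order can be read among values at the floor, where 59.0% of all genes lay in all 8 cells. *Sox17* itself was well above background at neither of its 2 probes in any cell, so the arrays give no check of the genotype. Of 10 endocardial or endothelial markers, each WT cell had 7 to 10 and each KO cell 6 to 9 well above background. Endoderm markers were well above background in no cell. No blood marker was above the floor, though 1 of 5 was well above background in WT cells 1 and 2. Of 3 smooth muscle markers, 2 were above the floor in WT cells 1 and 2 and KO cell 4 and 1 in KO cell 1, led by *Acta2* at log2 13.80 in WT cell 2 and 12.86 in KO cell 4. Of 4 neural crest markers, 1 was above it in WT cell 1 and 1 in KO cell 1. By the background call used for the endothelial markers, 2 smooth muscle markers passed in every cell. So did 1 or 2 neural crest markers, with *Sox10* passing in all 8 cells. All arrays were on 1 slide with a single scan time, with WT and KO arrays in separate columns of the slide, so position and genotype cannot be told apart.

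Among the ligands, *Nrg1* was high in most WT cells and in no KO cell. Its scaled signal was 1360 in WT cell 1, 860 in WT cell 2, 7.16 in WT cell 3 and 531 in WT cell 4. In the KO cells it was 25.3, 14.9, 1.68 and 33.5 in cells 1 to 4. Thus 3 WT cells were above the floor and all 4 KO cells were below it, while WT cell 3 lay within the range of the KO cells, so that the genotypes overlapped. The same separation was present in the deposited signals before any scaling, where the 3 high WT cells were at 579, 1330 and 882 and the other 5 cells between 2.72 and 30.8. The transcript was not wholly undetected in KO cells, since the probe was well above background in KO cells 1 and 4, as it was in WT cells 1, 2 and 4. In real-time PCR of dissected hearts at E8.5, the study reported *Nrg1* as too low to detect, and as lower in mutant hearts at a later stage. That assay pooled the cells of the heart, unlike the single cells here.

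With the floor applied, the mean log2 signal of *Nrg1* was 8.71 for WT and 5.64 for KO cells. The difference was -3.07, or 8.4-fold, with a pooled SD between cells of 1.5. All 4 KO values are at the floor, so the size of the difference is set by the floor. It was -3.90 with a floor of 10 and -1.57, short of 5-fold, with a floor of 200. Leaving out any 1 cell kept it past 5-fold, with values of -2.57 when WT cell 1 was omitted and -4.16 when WT cell 3, the cell that lacked the signal, was omitted.

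The pattern of *Nrg1* was set against all genes on the array. At least 5-fold between the means of the genotypes, in either direction, was reached by 3.68% of all genes, and by 8.97% of the 14595 genes above the floor in at least 1 cell. In the direction of *Nrg1*, lower in KO, these shares were 1.85% and 4.5%, and in the other direction 1.83% and 4.47%. A difference at least as low as that of *Nrg1* was found for 313 genes, or 0.88% of all. There were 137 genes above the floor in at least 3 WT cells and in no KO cell, as *Nrg1* was, which is 0.385% of all genes and 0.939% of those above the floor. The reverse pattern was found for 95 genes, which is 0.267% and 0.651%. Of the 8 genes studied here, *Nrg1* was the 1 that was at least 5-fold apart.

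The depth of the arrays and the endothelial markers were set beside *Nrg1*. The WT cells with *Nrg1* above the floor had 11370, 16429 and 18175 probes well above background, WT cell 3 had 14293, and the KO cells had 12781 to 16853. WT cell 1 had the highest scaled *Nrg1* signal through the largest scaling factor, 2.36, while its deposited signal was the lowest of the 3 high cells. The part of depth in the *Nrg1* signal was not tested.

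The log2 of the summed scaled signal of the 10 endocardial or endothelial markers ran from 13.29 to 15.12 over WT cells and from 12.78 to 16.28 over KO cells. The number of them above the floor was 7, 6, 9 and 9 across WT cells 1 to 4, and 6, 9, 9 and 7 across KO cells 1 to 4. Single markers went different ways. The receptor gene *Tek* was at 8.06 to 11.15 over WT cells and at the floor in KO cells 1 and 4, and *Nfatc1*, a factor gene of the endocardium, was at 8.44 to 10.93 over WT cells and at 5.64 and 6.35 in those KO cells. *Emcn*, an endothelial sialomucin gene, was at 8.52 to 13.36 in KO cells 1 to 3 and at most 6.84 in WT cells. These genes and the junction gene *Cdh5*, which was well above background in all 8 cells, were singled out after their values were seen. The part of these markers in the *Nrg1* difference was not tested. The log2 signal of *Cdh5* ran from 12.29 to 14.01 over WT cells and from 9.50 to 14.08 over KO cells. KO cell 2, with *Cdh5* at 14.08, the highest of the 8, had *Nrg1* under the floor, and so did WT cell 3, with *Cdh5* at 14.01.

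**Figure D1:**
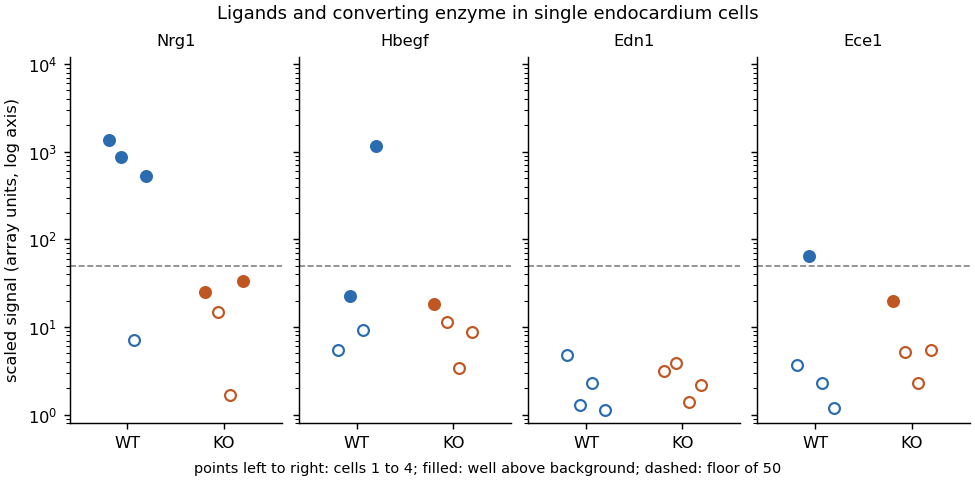
Scaled signal (array units, log axis) of *Nrg1*, *Hbegf*, *Edn1* and *Ece1* in each of the 4 WT (blue) and 4 KO (orange) cells, with cells 1 to 4 from left to right, filled where the probe was well above background and open where it was not. The dashed line is the floor of 50, above which lie *Nrg1* in 3 WT cells, *Hbegf* in WT cell 4 and *Ece1* in WT cell 2.

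*Hbegf*, the other ErbB ligand with signal above the floor, was high in a single cell. Its scaled signal was 5.43, 22.6, 9.12 and 1170 across WT cells 1 to 4, and 18.4, 11.4, 3.38 and 8.68 across KO cells 1 to 4. WT cell 4 alone was above the floor, and that cell also held *Nrg1*. The remaining WT cells and the KO cells overlapped throughout. The log2 difference of -1.14 (KO minus WT, SD between cells 1.61) was smaller than the spread between cells, and without WT cell 4 it was 0.00. Well above background were WT cells 2 and 4 and KO cell 1. A signal above the floor in exactly 1 of the 8 cells was found for 3870 genes, or 10.9% of all. They are a larger share of the 14595 genes that, like *Hbegf*, were above the floor in at least 1 cell.

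*Edn1* was not detected in these cells. Its probe, at chr13:42403101-42403160 of mm9 on the plus strand and printed 10 times on each array, passed the background call in no cell, with scaled signals from 1.13 to 4.78. At this signal no fold can be given and a difference between genotypes was not detectable. *Ece1*, with a probe at chr4:137519606-137519665 on the plus strand, was well above background in WT cell 2 and KO cell 1. Its scaled signal was 3.69, 65.0, 2.29 and 1.19 across WT cells 1 to 4, and 19.7, 5.23, 2.29 and 5.42 across KO cells 1 to 4. The single value above the floor left a log2 difference of -0.09 (SD between cells 0.13), with both genotypes mostly at the floor.

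Over the 4 ligand-side genes the median log2 difference was -0.62, with 3 genes lower in KO cells and *Edn1* at 0. It was -0.04 without WT cell 4, the cell with *Hbegf*, so this cell set its size. The median over all genes above the floor in at least 1 cell was 0.09, with 6492 lower and 8103 higher in KO cells. Each of the 3 lower genes rested on WT cells that were above the floor, which were 3 cells for *Nrg1* and 1 cell each for *Hbegf* and *Ece1*. By cell, the number of ligand-side genes above the floor was 1, 2, 0 and 2 across WT cells 1 to 4 and 0 for every KO cell. Counting detection over background instead, it was 1, 3, 0 and 2 for WT and 3, 0, 0 and 1 for KO cells. By either count the genotypes overlapped, WT cell 3 having none.

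No receptor was set apart by genotype. *Erbb2*, the shared partner of the ErbB receptors, was high in 1 cell of each genotype. Its scaled signal was 9.67, 2.80, 824 and 4.17 across WT cells 1 to 4, and 10.3, 15.7, 6.12 and 5270 across KO cells 1 to 4. WT cell 3 and KO cell 4 were thus far above the floor and the other 6 cells below it, with complete overlap of the genotypes. The probe, at chr11:98298103-98298162 of mm9, is also printed 10 times, and the CV between its spots was 4.04% in WT cell 3, 4.12% in KO cell 4 and 19.2% to 60.1% in the 6 dim cells. This CV covers the spots of an array and not the amplification of a cell.

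The log2 difference of *Erbb2* was 0.67 (SD between cells 2.77), less than the spread between cells. Its direction depended on KO cell 4, without which it was -1.01, and it was 1.68 without WT cell 3. Neither of the cells with *Erbb2* had a ligand-side gene above the floor, and none of the cells with *Nrg1* above the floor had *Erbb2* above it. This separation depends on the floor. By the background call KO cell 4 had both *Erbb2* and *Nrg1*, the latter at a scaled signal of 33.5. With 8 cells this is a description of these cells only.

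Markers of cardiomyocytes, in which ERBB2 is known to act, were looked at in the same cells. Of 10 such markers, WT cells 1 to 4 had 3, 8, 7 and 6 well above background, and KO cells 1 to 4 had 4, 4, 5 and 8. The log2 of their summed scaled signal ran from 8.38 to 15.06 over WT cells and from 10.03 to 15.57 over KO cells. WT cell 3 and KO cell 4, the cells with *Erbb2*, were at 11.66 and 14.82. WT cell 2 and KO cell 1 had higher sums without *Erbb2*. The troponin gene *Tnnt2*, singled out after its values were seen, was above the floor in WT cell 3 (log2 signal 11.37) and KO cell 4 (13.26) alone, the same cells as *Erbb2*. The cardiac factor gene *Tbx5* was well above background in no cell, and *Myh6* was at the floor in all. Other markers, named here in the same way, were high in cells without *Erbb2*. *Actc1* was above the floor in every cell, at log2 6.38 to 15.32. *Myl4* was at 14.03 in WT cell 2 and 12.84 in KO cell 1. The part of cardiomyocyte transcripts in the *Erbb2* signal was not tested. Over all genes, 50 were above the floor in WT cell 3 and KO cell 4 and in no other cell, or 0.141%. Only the 14595 genes above the floor in at least 1 cell could show this pattern, and of those the 50 are a larger share.

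**Figure D2:**
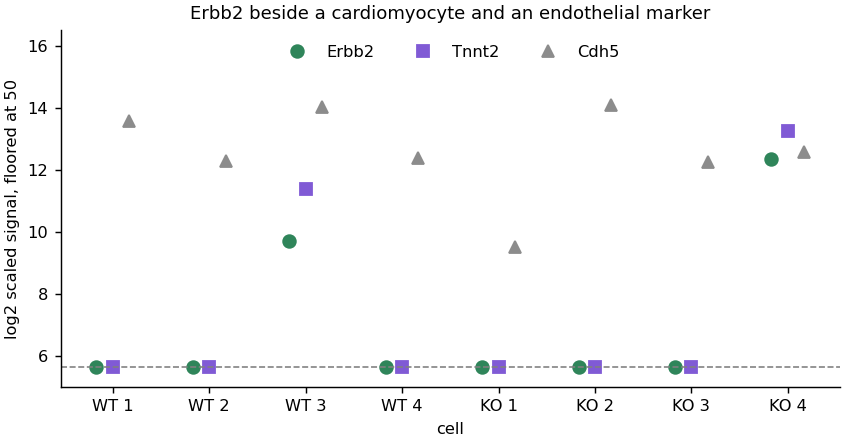
Log2 scaled signal, floored at 50, of *Erbb2* (green circles), the cardiomyocyte marker *Tnnt2* (purple squares) and the endothelial marker *Cdh5* (grey triangles) in each of the 8 cells, with the floor as a dashed line. *Erbb2* and *Tnnt2* are above the floor in WT cell 3 and KO cell 4, and *Cdh5* is above it in all 8 cells. Each marker is 1 of 10 of its list, singled out after the values were seen, and other cardiomyocyte markers had other patterns.

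*Egfr*, the receptor of HB-EGF, gave a weak signal at 1 of its 3 probes. The scaled signal of the probe printed above was 18.9, 4.48, 15.8 and 9.99 across WT cells 1 to 4, and 32.7, 14.4, 15.5 and 15.2 across KO cells 1 to 4. It was well above background in 3 cells of each genotype, but in all 8 cells it was under the floor, and the genotypes overlapped. Of the other probes, 1 lies 3556 bases further along the genome and is designed to the same transcript, and the other lies 26583 bases beyond that and is designed to NM_207655. Neither was well above background in any cell, with scaled signals from 1.24 to 3.89 and from 1.13 to 4.13. The 3 probes of *Egfr* therefore disagreed on whether the gene was detected, and the probe farthest along the chromosome, with 10 spots per array, showed none.

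*Erbb3* and *Erbb4*, whose products bind neuregulin directly, were well above background in no cell. Their probes lie at chr10:128006424-128006483 and chr1:68086686-68086745 of mm9, both on the minus strand. Their scaled signals ran from 1.38 to 4.74 and from 1.34 to 7.13. By the looser call of the scanner software, a signal positive and significant over background, *Erbb3* was detected in 2 cells and *Erbb4* in 3. The median log2 difference over the 4 receptors was 0.00, because 3 of them were at the floor in all cells. With so little signal the absence of a difference is a statement about the floor and not about the transcripts.

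**Figure D3:**
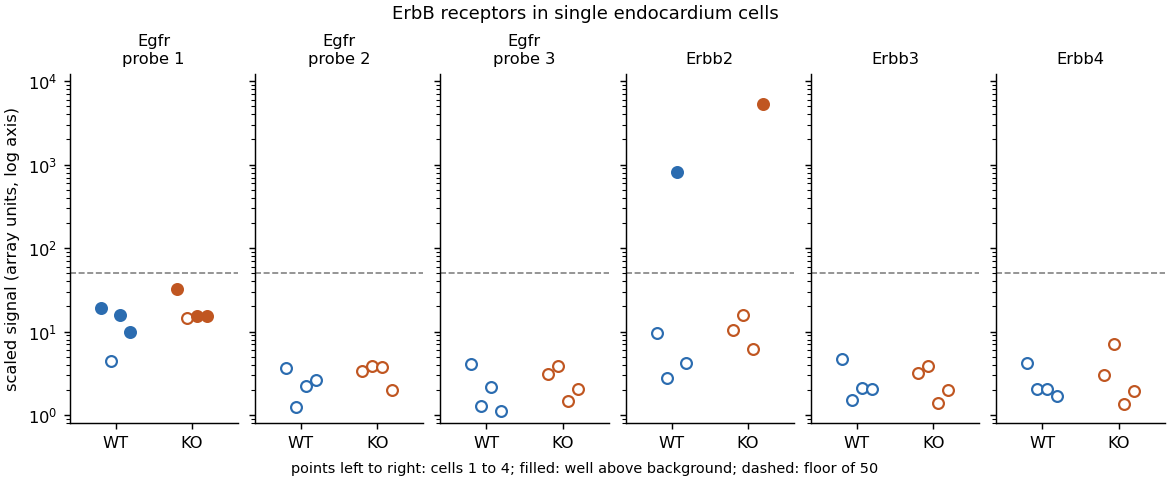
Scaled signal (array units, log axis) of every receptor probe in each WT (blue) and KO (orange) cell, with cells 1 to 4 from left to right, filled where well above background, and the floor of 50 as a dashed line. The *Egfr* probes are numbered along the chromosome, and *Erbb2* in WT cell 3 and KO cell 4 are the 2 values above the floor.

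No gene with a pattern most like that of a member could be named, since the rule required a member to be above the floor in at least 4 cells and the highest number was 3, for *Nrg1*.

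The other genes of these pathways were taken from lists of ligands, ligand-releasing enzymes, signal transducers, negative regulators and the cascade upstream of *Nrg1*. Of 72 genes besides the 8 above, the KO mean was at least 5-fold lower for 3 and at least 5-fold higher for 2. That is 6.94% of the 72, against 3.68% of all genes, and 11.6% of the 43 above the floor in at least 1 cell, against 8.97% of all such genes. The count of 5 was 8 without KO cell 2 and 9 without KO cell 4, and ran from 2 to 11 over floors of 200 to 1, so that its distance from the share of all genes depends on these choices. The median log2 difference of the 72 was 0.00, with 29 of them at the floor in all cells. Over all genes it was also 0.00, a value fixed by the floor, where 59.0% of genes lay in all 8 cells. The 2 medians therefore do not compare these genes with the rest. Every one of the 9 other ErbB ligands, from *Nrg2* to *Epgn*, was at the floor and not well above background in all 8 cells, so *Nrg1* and *Hbegf* were the ErbB ligands seen on these arrays.

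Of the endothelin receptors, *Ednra* was well above background in no cell, whereas *Ednrb* was so in all 8. On the log2 scale *Ednrb* was at 5.64, 9.12, 11.04 and 9.79 across WT cells 1 to 4. It was at the floor in KO cells 1 to 3 and at 8.71 in KO cell 4, so the genotypes overlapped. The difference was -2.49 (SD between cells 1.96). Omitting WT cell 3 gave -1.81, short of 5-fold, and omitting WT cell 1 gave -3.64, and the second of its 2 probes was at the floor in all cells, so that the mean of both differed by -1.24. *Lrig1*, whose product restrains ErbB receptors, was at 5.64, 11.90, 9.76 and 10.82 across WT cells 1 to 4 and at the floor in KO cells 1 to 3, with 7.02 in KO cell 4. Its difference was -3.54 (SD 1.99), or -2.71 with WT cell 2 omitted and -4.90 with WT cell 1 omitted, and its second probe differed by -3.06. Like *Nrg1*, both genes were high in 3 of 4 WT cells. For *Ednrb* and *Lrig1* the WT cell at the floor was cell 1, and for *Nrg1* it was cell 3.

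Of 29 signal transducers, 1 was at least 5-fold lower and 2 were at least 5-fold higher in KO cells, and 9 were at the floor in all cells. The second probe of 1 more, the kinase gene *Map2k2*, differed by -2.35, past 5-fold, while its brightest probe differed by 0.29. *Mapk3*, encoding a kinase at the end of the RAS and RAF cascade, ran from 6.14 to 12.17 over WT cells and from 11.44 to 14.89 over KO cells, with overlap. Its 2 probes differed by 3.34 (SD 2.26) and 2.95 (SD 1.61). For the first the value was 2.10 without WT cell 1, short of 5-fold, and 4.05 without WT cell 4.

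The adaptor gene *Shc1* was at 5.64, 11.07, 13.12 and 10.99 across WT cells 1 to 4 and at 13.31, 13.43, 11.74 and 12.63 across KO cells 1 to 4, with overlap. It differed by 2.57 (SD 2.33), and by 1.11 without WT cell 1, the cell in which it was at the floor, so that this cell set the call. Without WT cell 3 it was 3.54, and with the floor set before scaling and all probes used it was 2.02, short of 5-fold. *Araf*, a RAF kinase gene, differed by -2.73 (SD 1.52), with the 4 KO cells and WT cell 1 at the floor. It was -1.98 without WT cell 4, short of 5-fold, and -3.75 without WT cell 1. The mean of its 3 probes differed by -0.80.

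**Figure D4:**
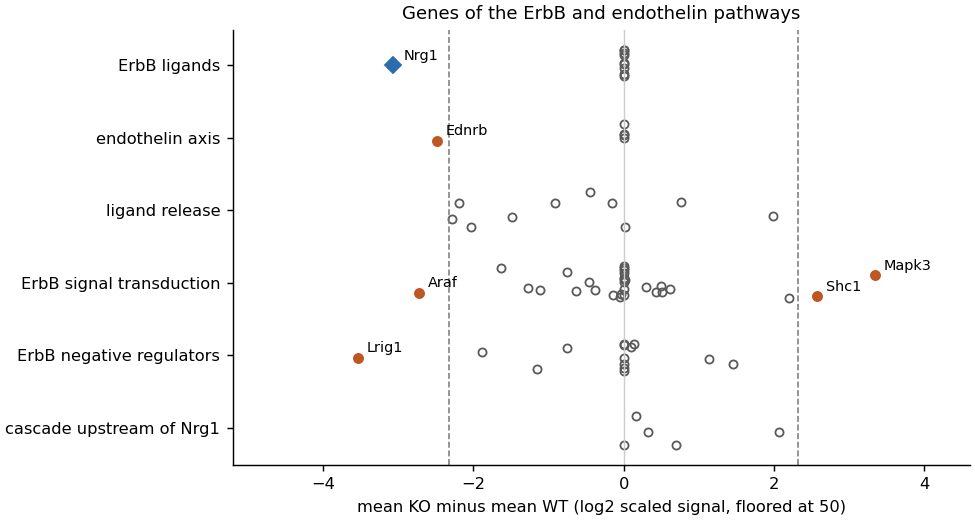
Difference of mean log2 scaled signal (KO minus WT, floored at 50) for each of the 72 other pathway genes by list, with *Nrg1* as a blue diamond and dashed lines at 5-fold. Orange points are the 5 genes past 5-fold, *Ednrb*, *Araf* and *Lrig1* lower and *Shc1* and *Mapk3* higher in KO cells.

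Of the genes for release of these ligands, all 10 were above the floor in at least 1 cell and none was 5-fold apart, with a median log2 difference of -0.68. The largest differences were just short of it, -2.28 (SD 3.01) for *Adam10* and -2.19 (SD 1.58) for *Rhbdf2*. *Rhbdf2* was above the floor in WT cells 2, 3 and 4 and in no KO cell. In the other direction the largest was 1.99 (SD 2.86), for *Adam19*. *Adam19*, encoding a protease that sheds neuregulins, and *Adam17*, whose product sheds HB-EGF, are singled out here for these roles after their values were seen. *Adam19* was well above background in all 8 cells, with 5.64 in WT cell 1 and 12.15 to 14.07 in the rest. WT cell 1 was thus a cell with high *Nrg1* and *Adam19* at the floor by its brightest probe. The second probe of *Adam19* differed by 0.05 between the genotypes. *Adam17* was at 7.06 in WT cell 4, the cell with *Hbegf*, at 10.12 in KO cell 4, and at the floor elsewhere.

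Of the cascade known to act upstream of *Nrg1* in the endocardium, none of 5 genes was 5-fold apart, and their median log2 difference was 0.32. This holds for the brightest probe of each, since the second probe of the receptor gene *Ephb4* differed by -2.63 and its brightest by 0.32. *Dll4*, encoding a NOTCH ligand and also singled out afterwards, was at 5.64, 5.64, 9.27 and 9.55 across WT cells 1 to 4 and at 5.64, 9.42, 8.39 and 7.30 across KO cells 1 to 4, a difference of 0.16 (SD 1.92). It was at the floor in WT cells 1 and 2, above the floor in WT cell 4, all of which held *Nrg1*, and above the floor in 3 KO cells with *Nrg1* below it. *Notch1*, singled out in the same way, was above the floor in KO cell 1 alone, at 13.89. Its probe was nevertheless well above background in all 4 WT and all 4 KO cells, so the transcript was not absent from the others. The difference of 2.06 (SD 2.91) rested on KO cell 1, and the second probe of *Notch1* differed by 0.00.

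**Figure D5:**
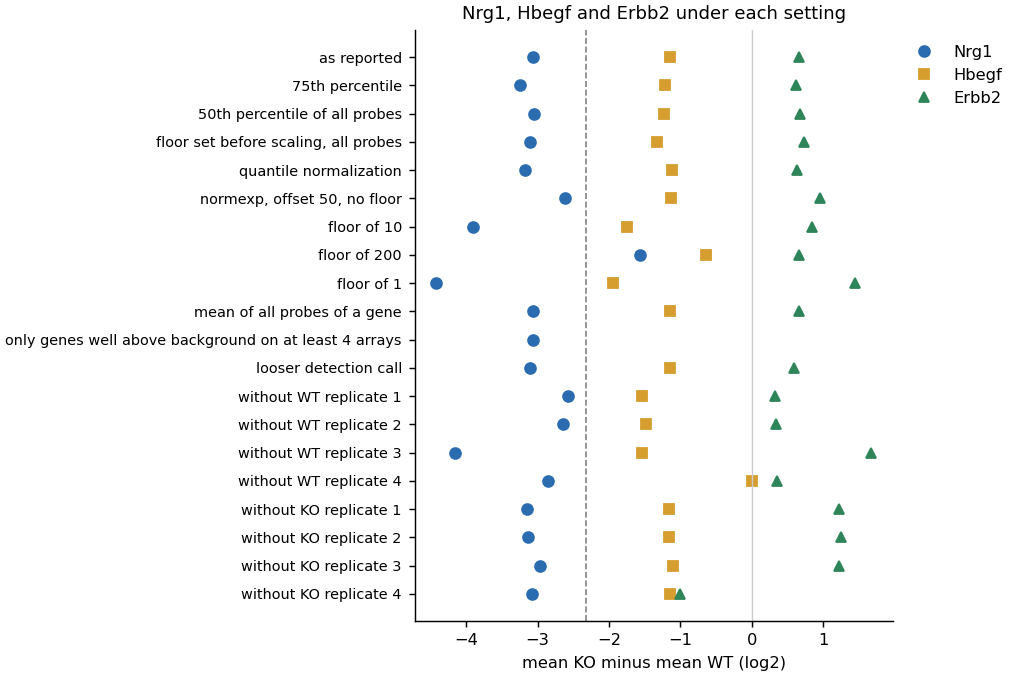
Difference of mean log2 signal (KO minus WT) of *Nrg1* (blue circles), *Hbegf* (yellow squares) and *Erbb2* (green triangles) as reported and under each other setting or with each cell left out, with a dashed line at 5-fold lower and a solid line at 0. *Nrg1* is below 0 throughout, from -4.42 to -1.57, while *Hbegf* reaches 0.00 without WT cell 4 and *Erbb2* falls to -1.01 without KO cell 4.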

How the data were processed

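The authors deposited the output of Agilent Feature Extraction 12.0.2.2 for each array of design 028005, with probe positions on mm9. The deposited intensity of a spot was corrected by that software for background and spatial trend, with no normalization between arrays and without the GeneSpring steps of the methods. Cells had been dissociated with trypsin, identified by PCR of marker genes, and their cDNA amplified and transcribed before Cy3 labeling.

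Control spots and outlier spots were left out and spots of a probe averaged, leaving 55295 of 55681 probes, none saturated. Detection of a probe required more than 50% of its spots to carry the call. Arrays were scaled to a common 50th percentile, taken over 7570 probes detected on every array, then floored at 50 and converted to log2. Of the probes, 28131 were named through their RefSeq accession (GRCm38.p6, names only) and the others by the file. A gene is given by its brightest probe. Differences are KO minus WT means, with the SD between cells pooled over genotypes. The number of arrays limits the precision. Genes named are the 8 members and pathway genes at least 5-fold apart, with markers, *Ednra* and genes marked in the text as exceptions, and 1 listed gene is not reported here. The members, lists and markers were chosen with earlier results of these data known. Cardiomyocyte arrays were not analysed here. The steps were tested on simulated arrays in which bright probes were shifted between genotypes, with an SD between cells of 0.5. That SD is smaller than the 1.5 of *Nrg1*, and no signal was lost in single cells. The simulation therefore does not show how well differences like that of *Nrg1* are recovered. Alternatives were the 75th percentile, all probes, the floor set first, quantile normalization, normexp (offset 50), a floor of 1, 10 or 200, averaging the probes of a gene, a filter on dim genes, a looser detection call, and leaving out each cell. Python 3.11.15, numpy 2.4.6, pandas 2.3.3, matplotlib 3.10.9, R 4.3.3 and limma 3.58.1 were used.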

Additional observations from a re-analysis of the deposited data

Results flagged for a closer look

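For each gene and genotype, the distance of the most extreme of 4 cells to its closest neighbor was expressed as a share of their range. Over the 8 genes and the 5 pathway genes past 5-fold, 14 groups had any range, and 6 passed Dixon's critical value. Chance passes about 1 of 20 groups of unfloored values, but in all 6 groups 3 of 4 cells were at the floor, which fixes the share at 1.0, so this rate does not apply to them. They were *Hbegf* in WT cells, where WT cell 4 was at 10.19 on the log2 scale, *Ece1* in WT cells, where WT cell 2 was at 6.02, and *Erbb2* in both genotypes, where WT cell 3 was at 9.69 and KO cell 4 at 12.36. The others were *Ednrb* and *Lrig1* in KO cells, where KO cell 4 was at 8.71 and 7.02. KO cell 4 was the cell that stood apart in 3 of the 6 groups. For comparison, 3870 genes were above the floor in exactly 1 cell. That is 10.9% of all genes and a larger share of the 14595 genes above the floor in at least 1 cell.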

How the results depend on the processing

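No paired analysis was possible because the results come from no test and a replicate number does not name an embryo. The difference of *Nrg1* stayed below 0 in all 19 alternatives, from -4.42 with a floor of 1 to -1.57 with a floor of 200, and the number of members 5-fold apart stayed at 1 except with a floor of 200, where it was 0. It was 1 whichever cell was left out. The ligand-side median of -0.62 became -3.07 when only genes well above background on at least 4 arrays were kept, since *Nrg1* alone remained, and ran from -0.85 to -0.04 with each cell left out, lowest in size without WT cell 4. The receptor median was between 0.00 and 0.49. The number of other pathway genes 5-fold apart, 5, was 2, 8 and 11 with a floor of 200, 10 and 1, 3 with the mean of all probes and 3 with normexp, and 5 to 9 with each cell left out, being 8 without KO cell 2 and 9 without KO cell 4. By the looser detection call *Nrg1*, *Hbegf* and *Erbb2* were detected in 8 cells each, against 5, 3 and 2.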
